A study of Mus musculus with 29 samples.

Results

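The subject here is a set of 10 genes that encode subunits of the BAF complex (Actl6a, Actl6b, Dpf1, Dpf2, Dpf3, Phf10, Smarca2, Smarca4, Bcl7a and Ss18l1), selected by symbol from the 25239 genes of the expression table. They were chosen with earlier results of the same values in view, so their differences are given as a description and are no independent test of the choice. All 10 were found in the table and all 10 passed the filter on low values (a mean of at least 1), which 15719 of the 25239 genes passed.

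The libraries came from astrocytes of the postnatal cerebral cortex of wild-type C57BL/6J mice aged 5 to 6 days, grown as a serum-containing culture for 10 days and collected 48 h after transduction. All groups received bFGF at 10 ng/ml, and the EGF+bFGF groups received EGF at 10 ng/ml as well. The retroviruses, which enter dividing cells, encoded only a fluorescent reporter (Control), or also the proneural transcription factor Neurog2 or the chromatin protein Hmgb2, and the Neurog2+Hmgb2 groups received both factors. Expression was driven by the CAG promoter, and the transduced cells were sorted by fluorescence. In the paper the Neurog2 virus carried dsRED and the Hmgb2 virus GFP, and the control of the RNA comparison is named as CAG-GFP. The reporter thus changed with the Neurog2 virus, and its part cannot be told apart from that of Neurog2. In EGF+bFGF there were 5 libraries for Control, 3 for Neurog2, 4 for Hmgb2 and 3 for Neurog2+Hmgb2. In bFGF there were 3 for Control, 4 for Neurog2, 4 for Hmgb2 and 3 for Neurog2+Hmgb2. In all, 13 libraries had the Neurog2 virus and 16 did not. The methods name white matter as the source of the tissue and the descriptions of the samples name grey matter. That replicates came from separate cultures is not stated in the labels, so p-values measure the spread between these libraries, which may be technical.

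BAF complexes are ATP-dependent chromatin remodellers of the SWI/SNF family, which move or evict nucleosomes. In the developing nervous system, neural progenitors carry the actin-like subunit ACTL6A and the PHD finger subunit PHF10. In neurons that leave the cell cycle these are replaced by ACTL6B and by DPF1 or DPF3, and SS18 is replaced by SS18L1. The exchange is known as the switch from the progenitor to the neuronal BAF complex. In mice, the microRNAs miR-9-3p (also named miR-9*) and miR-124 repress Actl6a, and the REST repressor holds these microRNAs down outside neurons.

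The sequences bearing on Actl6a are shown first, because the exchange is described as passing through a microRNA site in its 3′ UTR. The mature miRNA is from RefSeq (GRCm38.p6), where it is encoded by Mir9-1 on chromosome 3, Mir9-2 on chromosome 13 and Mir9-3 on chromosome 7. Capitals mark the seed, bases 2 to 8, and in the Actl6a sequence the bases that pair with it.
mmu-miR-9-3p: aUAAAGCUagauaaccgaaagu
Actl6a site: ctcaacgtctgtAGCTTTAgtacactcagg

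The Actl6a site lies at chr3:32726628-32726657 on the forward strand (GRCm38), in the 3′ UTR of the gene as annotated by GENCODE, and its match to the seed starts at base 38 of a 3′ UTR of 371 bases. The letters AGCTTTA were found in the longest annotated 3′ UTR of 11.3% of 21039 genes and of 8 of 30 SWI/SNF subunit genes, among them Actl6a and Smarca2 of the 10 members. A match is a stretch of letters and not a proven site. The start of Actl6b, the neuronal counterpart, is shown because this gene had the largest averaged difference of the 30 subunits. The window spans the RefSeq start (GRCm38.p6, chr5:137553296-137553595, forward strand, 300 bases). Capitals mark the only match to CANNTG, the general pattern of the E-box, a class of site that includes those of proneural factors. The letters of the match are CAATTG, and this window holds neither CAGATG nor CAGCTG. Binding of Neurog2 to it was not tested.
Actl6b promoter: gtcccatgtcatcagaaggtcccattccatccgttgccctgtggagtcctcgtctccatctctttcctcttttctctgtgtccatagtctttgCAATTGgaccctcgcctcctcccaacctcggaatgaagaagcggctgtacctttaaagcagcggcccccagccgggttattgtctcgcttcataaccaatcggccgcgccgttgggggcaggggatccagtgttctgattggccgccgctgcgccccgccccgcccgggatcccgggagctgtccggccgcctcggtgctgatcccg

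The match starts 157 bases before the start site, and 72.1% of 27025 promoters of this length hold at least 1 CANNTG on either strand. The E-box CAGATG, searched on either strand (CAGATG or CATCTG), was in 17.2% of these promoters and in none of those of the members. RefSeq promoters were matched for 9 of the 10 members, Bcl7a being the exception.

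The label checks came out as follows. The mean of the Neurog2 values, which sum endogenous and viral transcripts, was 13.50 in the EGF+bFGF Neurog2 libraries and 7.99 in the EGF+bFGF Control libraries on the rlog scale, a regularized log2 scale in which differences of genes with few reads are shrunken. In the Hmgb2 libraries, which received no Neurog2 virus by their labels, Neurog2 was at 9.35 to 11.47, above the 7.74 to 8.22 of the Control libraries and below the 12.36 to 14.29 of the libraries with the Neurog2 virus. Hmgb2 minus Control was 2.66 ± 0.35 for Neurog2 in EGF+bFGF (adjusted p = 0.000551) and 2.17 ± 0.39 in bFGF (adjusted p = 0.0961), and the cause was not tested. The averaged comparison is therefore also given with the Control libraries alone as reference. Hmgb2 itself was at 11.48 to 13.32 in the libraries with its virus and at 9.34 to 10.89 in the others. The astrocyte markers Gfap (13.04 to 16.24) and Sox9 (10.47 to 11.98) were at high values in all libraries, and S100b was at 4.03 to 7.03. Of the endothelial genes, Cldn5 and Emcn were below 0, and Pecam1 and Tek were at 1.23 to 3.03. Cdh5 was at 5.59 to 9.98, Flt1 at 5.02 to 9.16, Esam at 4.70 to 9.80, Egfl7 at 4.91 to 6.03 and Kdr at 3.89 to 5.74. Microglia transcripts were present, with the mean of 18 markers at 4.88 to 9.10 in the libraries with the Neurog2 virus and at 4.80 to 8.76 in the others.

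With the Neurog2 virus, the neuronal subunit gene Actl6b and the accessory subunit gene Bcl7a rose and the progenitor subunit genes did not fall. The averaged difference, the mean over both cultures and over with and without Hmgb2 of the group with minus the matching group without the Neurog2 virus, was 1.09 ± 0.16 (SE) on the log2 scale for Actl6b and 0.94 ± 0.11 for Bcl7a. Dpf2, the broadly expressed PHD finger subunit, rose by 0.23 ± 0.07. The adjusted p-values from limma over all 15719 tested genes were 3.26e-05 for Actl6b, 3.37e-06 for Bcl7a and 0.0179 for Dpf2. Of the 10 members, 3 were called higher and 0 lower at an adjusted p under 0.05, where 15.3% of all tested genes were called in either direction. The call of Dpf2 was lost with the mean of microglia markers as a covariate (0.18, adjusted p = 0.12), and also with a replicate block within each culture. Since the members were chosen on these values, nothing is read from that share. The averaged difference was 0.16 ± 0.10 (adjusted p = 0.316) for Actl6a and 0.26 ± 0.11 (adjusted p = 0.127) for Phf10. Neither progenitor gene passed the test in either direction in this fit, and both estimates were above 0. Among 13 alternatives other than leaving out a library, Actl6a was called higher in 1 (adjusted p = 0.0105). Phf10 was called higher in 2 of them (lowest adjusted p = 0.00517). A rise of the neuronal Actl6b was thus measured at 48 h, and a fall of Actl6a or Phf10 was not detected. These are RNA values, and neither the subunit proteins nor the composition of the complex was measured here, so an exchange itself was not tested. In bulk samples, a change in RNA per cell and a change in the share of cells that carry it cannot be told apart.

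**Figure D1:**
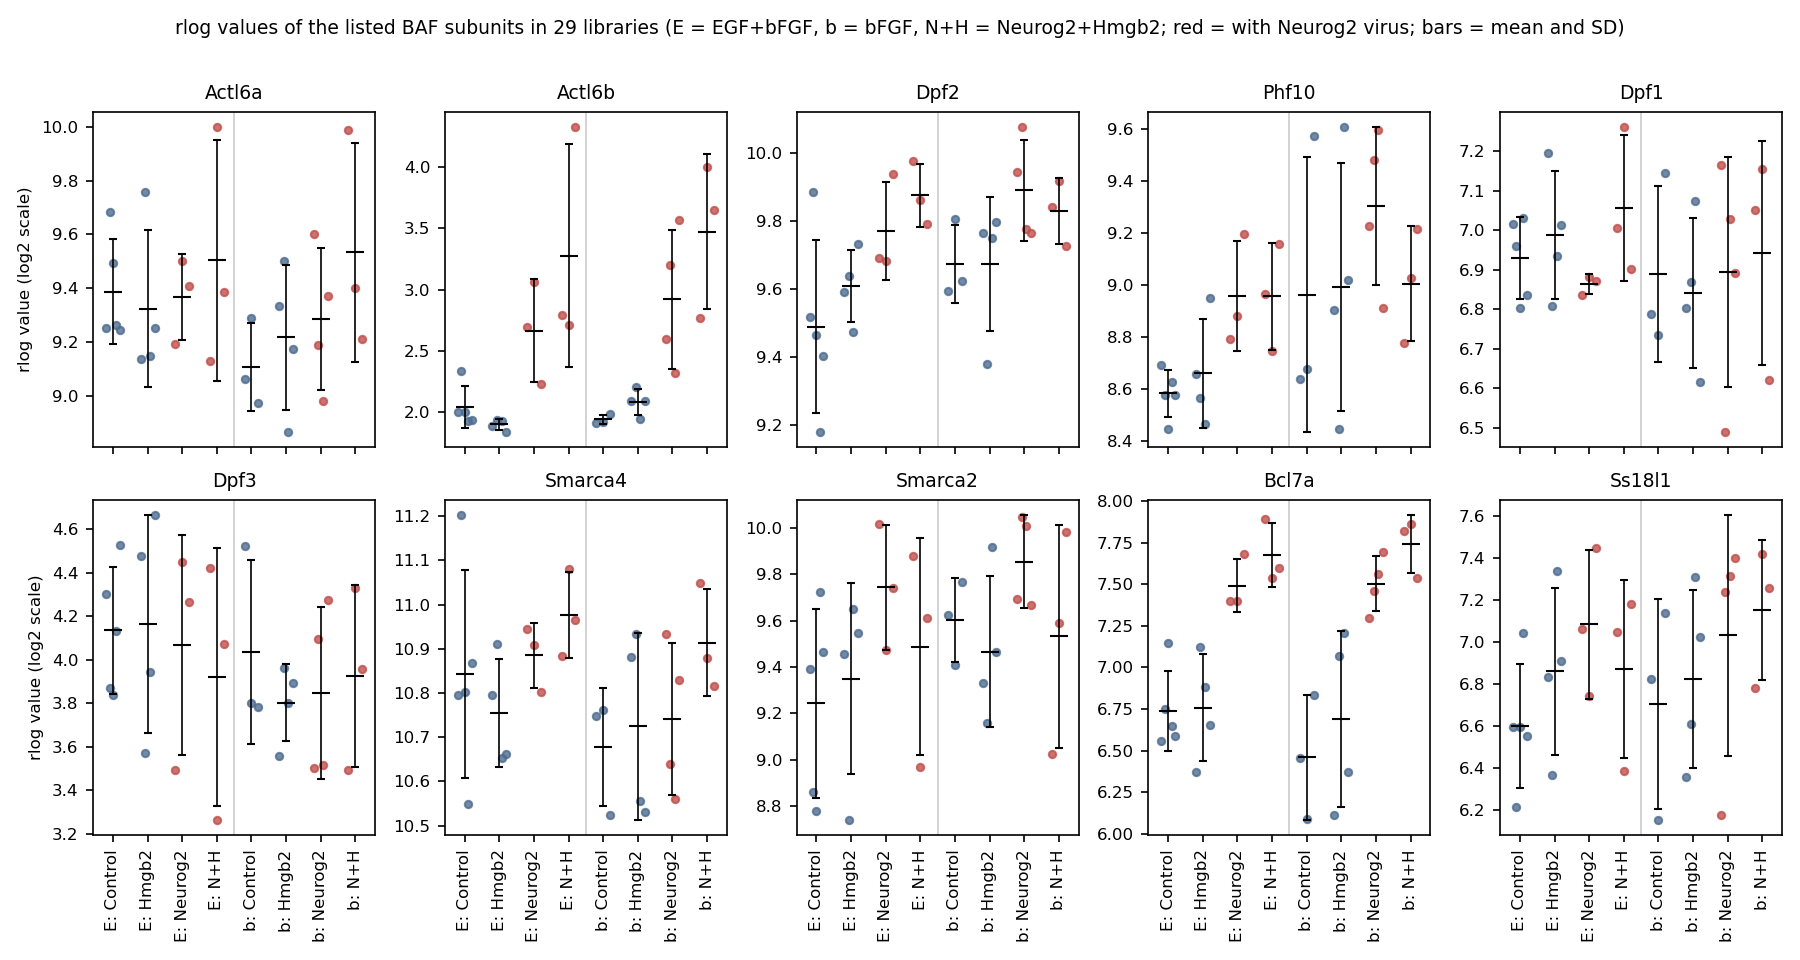
The rlog values of the 10 BAF subunit genes are plotted by library in 8 groups (points, red with the Neurog2 virus) with the group mean and SD (bars), on a separate axis for each gene. E and b stand for the EGF+bFGF and bFGF cultures and N+H for Neurog2+Hmgb2. All 13 Bcl7a values with the Neurog2 virus (7.30 to 7.89) sit above all 16 without it (6.09 to 7.21). The ranges of Actl6a overlap, at 8.98 to 10.00 with the virus and 8.87 to 9.76 without it.

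Actl6b (ENSMUSG00000029712.14, chromosome 5, 137553517 to 137569582, forward strand of GRCm38) encodes the actin-like subunit of neurons. In the EGF+bFGF culture its rlog values were 2.004, 2.34, 2.01, 1.93 and 1.94 in the Control libraries and 2.70, 3.07 and 2.23 with Neurog2. They were 2.79, 2.71 and 4.33 with Neurog2+Hmgb2 and 1.89, 1.94, 1.93 and 1.84 with Hmgb2. The 3 Neurog2+Hmgb2 libraries were all above every Control library, and the lowest Neurog2 library (2.23) was below Control replicate 2 (2.34). In the bFGF culture the values were 1.92, 1.93 and 1.99 in the Control libraries and 2.60, 3.20, 2.33 and 3.57 with Neurog2. With Neurog2+Hmgb2 they were 2.77, 4.00 and 3.65, and with Hmgb2 they were 2.09, 2.21, 1.94 and 2.09. In this culture no library with the Neurog2 virus overlapped with the Control or Hmgb2 libraries. Over both cultures, 11 of the 13 libraries with the Neurog2 virus lay above the highest of the 16 without it. The order of the group means was bFGF Neurog2+Hmgb2 (3.47), EGF+bFGF Neurog2+Hmgb2 (3.28), bFGF Neurog2 (2.92), EGF+bFGF Neurog2 (2.67), bFGF Hmgb2 (2.09), EGF+bFGF Control (2.05), bFGF Control (1.94) and EGF+bFGF Hmgb2 (1.90). Neighbours among the upper 4 groups overlapped in their libraries. The rlog transformation draws values of low genes together, so the differences of Actl6b are those on the shrunken scale.

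Of the 30 subunits, 0 were called with Neurog2 in EGF+bFGF, 1 with Neurog2 in bFGF (Bcl7a) and 2 with Neurog2+Hmgb2 in each culture (Actl6b and Bcl7a). Against the Control of its culture, Actl6b was called with Neurog2+Hmgb2 and not with Neurog2 alone. The difference was 1.23 ± 0.30 (SE, adjusted p = 0.0313 from limma) in the EGF+bFGF culture, where 1.98% of all tested genes were called, and 1.53 ± 0.34 (adjusted p = 0.02) in the bFGF culture, where 1.48% were. With Neurog2 alone it was 0.62 ± 0.30 (adjusted p = 0.408) in the EGF+bFGF culture, where 1.58% of genes were called, and 0.98 ± 0.32 (adjusted p = 0.279) in the bFGF culture, where 0.35% were. The difference between these responses was tested itself and did not pass. Neurog2+Hmgb2 minus Neurog2 gave 0.61 ± 0.34 (adjusted p = 0.802) in the EGF+bFGF and 0.55 ± 0.32 (adjusted p = 0.998) in the bFGF culture, and the interaction of Neurog2 with Hmgb2 was 0.58 ± 0.31 (adjusted p = 0.999). The values of the EGF+bFGF comparison rest on Neurog2+Hmgb2 replicate 3 (4.33), without which the difference was 0.71 (adjusted p = 0.428). Its call was also lost without Control replicate 1, 3, 4 or 5 (adjusted p = 0.0602 to 0.0693). In the bFGF culture the call was lost without Control replicate 1 or 2 or Neurog2+Hmgb2 replicate 2 or 3 (adjusted p = 0.0818 to 0.148). Fitted with the compared groups alone, neither call was made (adjusted p = 0.209 in EGF+bFGF and 0.134 in bFGF), and with the microglia mean as covariate that in bFGF was lost (1.31, adjusted p = 0.0582). The EGF+bFGF call was also lost with the replicate number as a block. The averaged difference kept its call without any single library (0.96 to 1.18, adjusted p = 7.32e-06 to 0.000121).

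Bcl7a (ENSMUSG00000029438.9, chromosome 5, 123343834 to 123374992, forward strand) encodes an accessory subunit shared by progenitor and neuronal complexes. Its rlog values in the EGF+bFGF culture were 6.56, 6.75, 7.15, 6.65 and 6.59 in the Control libraries and 7.40, 7.40 and 7.68 with Neurog2. With Neurog2+Hmgb2 they were 7.89, 7.54 and 7.60, and with Hmgb2 they were 6.37, 7.12, 6.88 and 6.65. The groups with the Neurog2 virus did not overlap with those without it. In the bFGF culture the Control libraries were at 6.46, 6.09 and 6.84 and the Neurog2 libraries at 7.30, 7.46, 7.56 and 7.69. Those with Neurog2+Hmgb2 were at 7.82, 7.86 and 7.54 and those with Hmgb2 at 6.11, 7.07, 7.21 and 6.37. Here too the groups with and without the Neurog2 virus did not overlap.
Bcl7a was called against Control in 3 of the 4 comparisons of a group with the Neurog2 virus. The difference was 0.94 ± 0.22 (adjusted p = 0.0241 from limma) with Neurog2+Hmgb2 in the EGF+bFGF culture, 1.28 ± 0.25 (adjusted p = 0.00756) with Neurog2+Hmgb2 in the bFGF culture and 1.04 ± 0.23 (adjusted p = 0.0439) with Neurog2 in the bFGF culture. With Neurog2 in the EGF+bFGF culture it was 0.75 ± 0.22 (adjusted p = 0.0918). These comparisons share their Control libraries within a culture. With the compared groups alone the adjusted p-values of the 3 calls were 0.0813, 0.113 and 0.363 in this order, so none was made. That of Neurog2 in bFGF was also lost without the filter on low values (0.0575) and with the microglia covariate (0.093). With the replicate number as a block, the call of Neurog2+Hmgb2 in EGF+bFGF was lost. A block within each culture ended that of Neurog2 in bFGF as well. Leaving out 1 library ended the call of Neurog2 in the bFGF culture in 15 of 29 cases (adjusted p = 0.0505 to 0.345). These were bFGF Control 1 and 2, bFGF Neurog2 1, 2 and 4, bFGF Neurog2+Hmgb2 2 and 3, EGF+bFGF Control 1, 2, 4 and 5, EGF+bFGF Hmgb2 3 and 4, and EGF+bFGF Neurog2 2 and 3. The call of Neurog2+Hmgb2 in the EGF+bFGF culture was lost without its Control replicate 1, 4 or 5 or its Neurog2+Hmgb2 replicate 1 or 3 (adjusted p = 0.0556 to 0.105), and that in the bFGF culture without Control replicate 2 (1.09, adjusted p = 0.0726).

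**Figure D2:**
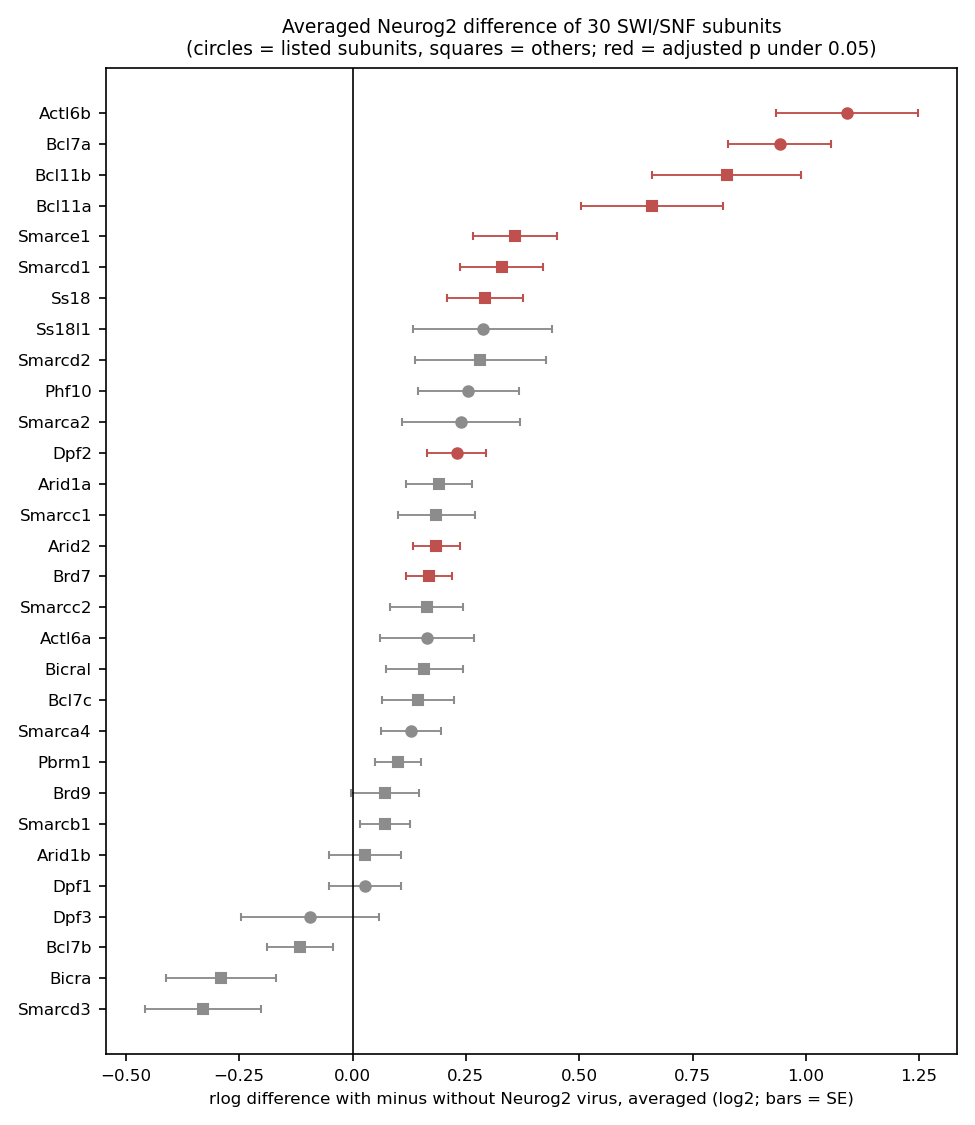
Averaged rlog difference with minus without the Neurog2 virus (log2, bars are SE) for the 10 listed subunits (circles) and 20 other SWI/SNF subunits (squares), red where the adjusted p was under 0.05. Actl6b (1.09), Bcl7a (0.94), Bcl11b (0.83) and Bcl11a (0.66) stand at the upper end, and 26 of the 30 lie above 0.

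Actl6a (ENSMUSG00000027671.14, chromosome 3, 32706298 to 32726973, forward strand) encodes the progenitor counterpart of Actl6b and is also a subunit of the INO80 and TIP60 complexes. It was at 9.25, 9.68, 9.50, 9.26 and 9.24 in the EGF+bFGF Control libraries and at 9.19, 9.50 and 9.41 with Neurog2. With Neurog2+Hmgb2 it was at 9.13, 10.00 and 9.38 in this culture and at 9.99, 9.40 and 9.21 in the bFGF culture, where the Control libraries were at 9.06, 9.29 and 8.97. The bFGF Neurog2 libraries were at 9.60, 9.19, 8.98 and 9.37. With Hmgb2 it was at 9.14, 9.76, 9.15 and 9.25 in EGF+bFGF and at 9.33, 9.50, 8.87 and 9.17 in bFGF. Every group with the Neurog2 virus overlapped with its Control group, and no library with the virus was below the lowest without it (8.87). The difference from Control was −0.02 ± 0.20 with Neurog2 and 0.12 ± 0.20 with Neurog2+Hmgb2 in the EGF+bFGF culture, and 0.18 ± 0.21 and 0.43 ± 0.22 in the bFGF culture, with adjusted p-values of 0.358 to 0.986. Of its exonic bases, 11.63% overlap with Mrpl47 on the other strand, and the library kit does not keep the strand.

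The RNA of the PHD finger subunits showed no shift in the neuronal direction either. Dpf2 (ENSMUSG00000024826.15, chromosome 19, 5896516 to 5913010, reverse strand) was at 9.68 to 10.08 (median 9.84) in the 13 libraries with the Neurog2 virus and at 9.18 to 9.88 (median 9.61) in the 16 without it. The ranges overlapped, with 5 libraries with the virus above the highest without it. No single comparison with Control called Dpf2, the largest difference being 0.39 ± 0.13 (adjusted p = 0.131) with Neurog2+Hmgb2 in the EGF+bFGF culture. Phf10 (ENSMUSG00000023883.13, chromosome 17, 14945009 to 14961273, reverse strand), the progenitor PHD finger subunit, was at 8.75 to 9.60 (median 9.02) with the virus and at 8.45 to 9.60 (median 8.65) without it. It passed the test of the averaged difference when bFGF Control replicate 3 (0.33, adjusted p = 0.0283) or bFGF Hmgb2 replicate 3 (0.31, adjusted p = 0.0433) was left out, the libraries in which Phf10 was at 9.57 and 9.60. Of the exonic bases of Phf10, 9.56% overlap with 1600012H06Rik on the other strand.
For the neuronal PHD finger subunits no difference was detected. Dpf1 (ENSMUSG00000030584.14, chromosome 7, 29303951 to 29318243, forward strand) was at 6.49 to 7.26 (median 6.90) with the virus and at 6.61 to 7.20 (median 6.90) without it, an averaged difference of 0.03 ± 0.08 (adjusted p = 0.864). Dpf3 (ENSMUSG00000021221.15, chromosome 12, 83213745 to 83487716, reverse strand) was at 3.27 to 4.45 (median 4.07) with the virus and at 3.56 to 4.66 (median 3.92) without it. Its averaged difference was −0.09 ± 0.15 (adjusted p = 0.731), and 5 libraries with the virus lay below the lowest without it.

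The ATPases and Ss18l1 did not pass the test in the main fit either, though each was called in some alternatives. Smarca4 (ENSMUSG00000032187.16, chromosome 9, 21616169 to 21704230, forward strand) encodes BRG1, the catalytic subunit of most neural BAF complexes, and was at 10.56 to 11.08 (median 10.88) with the virus and 10.52 to 11.20 (median 10.78) without it. The averaged difference was 0.13 ± 0.07 (adjusted p = 0.198). Smarca2 (ENSMUSG00000024921.17, chromosome 19, 26605050 to 26778322, forward strand) encodes BRM, the alternative ATPase, and was at 8.97 to 10.05 (median 9.69) with and 8.74 to 9.92 (median 9.46) without the virus. Its averaged difference was 0.24 ± 0.13 (adjusted p = 0.231). Ss18l1 (ENSMUSG00000039086.9, chromosome 2, 180042509 to 180070201, forward strand) encodes CREST, a calcium-responsive transactivator and the neuronal counterpart of SS18. It was at 6.18 to 7.45 (median 7.18) with and 6.15 to 7.34 (median 6.71) without the virus, a difference of 0.29 ± 0.15 (adjusted p = 0.221). The groups overlapped for all 3 genes.

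**Figure D3:**
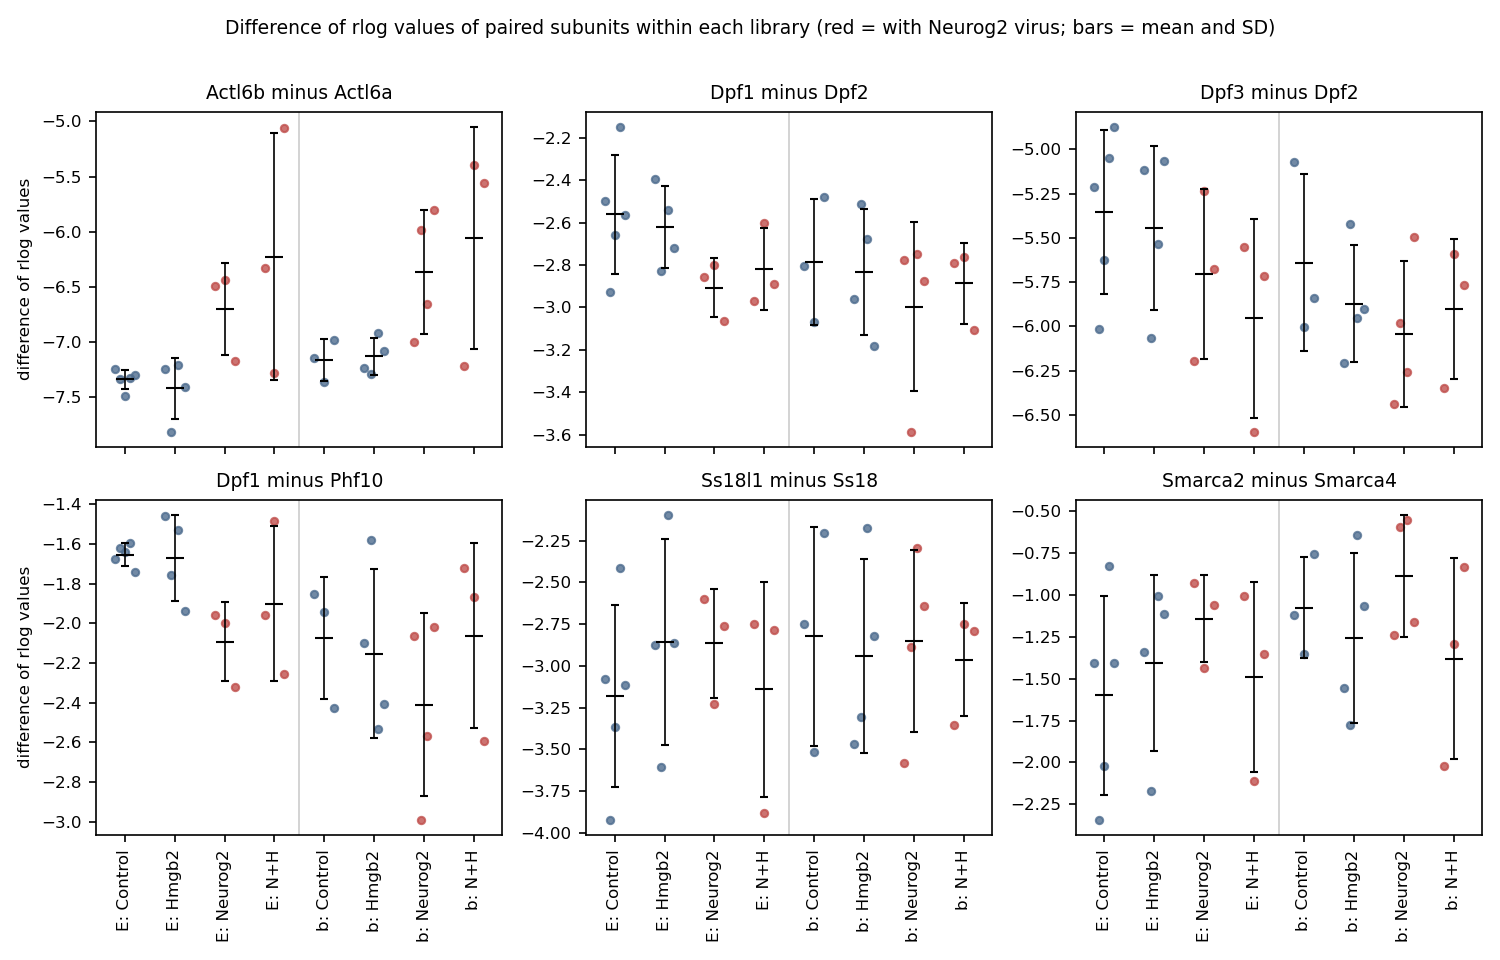
Difference of the rlog values of a neuronal and a progenitor or broadly expressed subunit within each library, by group, with the mean and SD (bars). The panel of Smarca2 minus Smarca4 compares alternative ATPases instead. Actl6b minus Actl6a reaches higher with the Neurog2 virus (red, −7.29 to −5.06) than without it (−7.82 to −6.92), and the ranges of every pair overlap.

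Paired subunits were also compared within each library, as the rlog value of the neuronal subunit minus that of its counterpart, and for the ATPases as Smarca2 minus Smarca4. These values are not per transcript length, so a difference between genes is no ratio of molecules and only its change between groups can be read. Actl6b minus Actl6a had a mean over the 4 groups of −6.34 with the Neurog2 virus and −7.26 without it, and the libraries were at −7.29 to −5.06 and −7.82 to −6.92. The ranges overlapped at their ends. Dpf1 minus Dpf2 was −2.90 with and −2.70 without the virus, and Dpf3 minus Dpf2 was −5.90 and −5.58. Dpf1 minus Phf10 was −2.12 and −1.89, and Dpf3 minus Phf10 was −5.11 and −4.77. The means of these 4 pairs were thus lower with the virus, away from the neuronal subunit. As the pairs combine the same 4 genes, they are not separate observations. Ss18l1 minus Ss18 was −2.95 with and −2.95 without the virus, and Smarca2 minus Smarca4 was −1.22 and −1.33. For all 6 of these pairs the libraries with and without the virus overlapped.

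Neither Hmgb2 alone nor the culture called any of the 30 SWI/SNF subunits. With Hmgb2 against Control, the largest difference of a member was 0.26 ± 0.27 (Ss18l1) in the EGF+bFGF and −0.23 ± 0.31 (Dpf3) in the bFGF culture, and 0.0127% and 0.00636% of all tested genes were called. At an unadjusted p under 0.05 from limma, 0 of the 30 subunits passed in each culture. Of the Neurog2+Hmgb2 against Neurog2 comparisons, 0.00636% of genes were called in each culture and 0 of the 30 subunits, 0 also at an unadjusted p under 0.05. Averaged over cultures and Neurog2, the Hmgb2 difference called 0.0127% of genes and 0 subunits, and that of Actl6b was 0.29 ± 0.16 (adjusted p = 0.779). The bFGF minus EGF+bFGF difference, averaged over viruses, called 1.18% of genes and 0 subunits, of which 2 had an unadjusted p under 0.05. Phf10 was higher in bFGF by 0.28 ± 0.11 (adjusted p = 0.223). The difference of the Neurog2 response between cultures called 0% of genes and no subunit (Actl6b 0.19 ± 0.31, Bcl7a 0.21 ± 0.23, adjusted p = 1 for each), with 1 subunit at an unadjusted p under 0.05. The interaction of Neurog2 with Hmgb2 called 0% of genes, and 0 subunits had an unadjusted p under 0.05.

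Of the 20 other SWI/SNF subunits, 7 were higher and 0 lower with the Neurog2 virus in the averaged comparison. Bcl11b and Bcl11a encode zinc finger transcription factors found in BAF complexes that act in the differentiation of cortical neurons. Bcl11b rose by 0.83 ± 0.16 (adjusted p = 0.00121) and was at 4.54 to 6.31 (median 5.07) with and 4.02 to 5.18 (median 4.45) without the virus. Bcl11a rose by 0.66 ± 0.16 (adjusted p = 0.00533), from a median of 4.99 to one of 5.59. The ranges of both overlapped. The core subunits Smarce1 (0.36 ± 0.09, adjusted p = 0.00973) and Smarcd1 (0.33 ± 0.09, adjusted p = 0.0154) rose, as did the PBAF subunits Arid2 (0.18 ± 0.05, adjusted p = 0.0179) and Brd7 (0.17 ± 0.05, adjusted p = 0.0246). Ss18, which SS18L1 replaces in neurons, rose by 0.29 ± 0.08 (adjusted p = 0.0199). Together with the members, 10 of 30 subunits (33.3%) were called, 26 were above 0 and their median difference was 0.18, against 15.3% called, 51.2% above 0 and a median of 0.01 over all tested genes. Smarcd3, the BAF60C subunit of neuronal and muscle complexes, was at −0.33 ± 0.13 (adjusted p = 0.0843) and Bicra, a subunit of the non-canonical complex, at −0.29 ± 0.12 (adjusted p = 0.108).

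With the Control libraries alone as reference, the averaged difference was 1.09 ± 0.19 for Actl6b (adjusted p = 0.00052), 1.00 ± 0.14 for Bcl7a (adjusted p = 3.43e-05) and 0.26 ± 0.08 for Dpf2 (adjusted p = 0.0379). In this fit 7 of the 30 subunits were called, namely these 3 with Bcl11a, Bcl11b, Smarce1 and Ss18, and 9.91% of all tested genes were.

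The regulators of the exchange were read from a list of 11 genes, of which 10 were tested and Mir9-1 was not. Rcor2, a CoREST corepressor, rose by 2.11 ± 0.20 (adjusted p = 1.09e-07) and was at 7.94 to 9.64 with and 5.60 to 8.28 without the Neurog2 virus. Mir124a-1hg, the host gene of a copy of miR-124, rose by 0.87 ± 0.15 (adjusted p = 0.000352) and was at 1.79 to 3.98 (median 2.72) with and 1.67 to 2.29 (median 1.77) without it. The values are those of the host transcript and do not measure the mature microRNA. Of the 13 libraries with the virus, 10 lay above the highest without it. For Mir124-2hg, the host gene of another copy, no difference was detected (0.05 ± 0.10, adjusted p = 0.808), with libraries at 1.86 to 2.51 with and 1.77 to 2.53 without the virus. Rest, the repressor, was at 8.52 to 9.73 with and 8.89 to 9.57 without the virus (−0.18 ± 0.13, adjusted p = 0.39), and its cofactor phosphatase Ctdsp1 gave −0.26 ± 0.11 (adjusted p = 0.112). Mir9-3hg, the host gene of a copy of miR-9, gave −0.08 ± 0.25 (adjusted p = 0.877). The median of the 10 was 0.02.

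**Figure D4:**
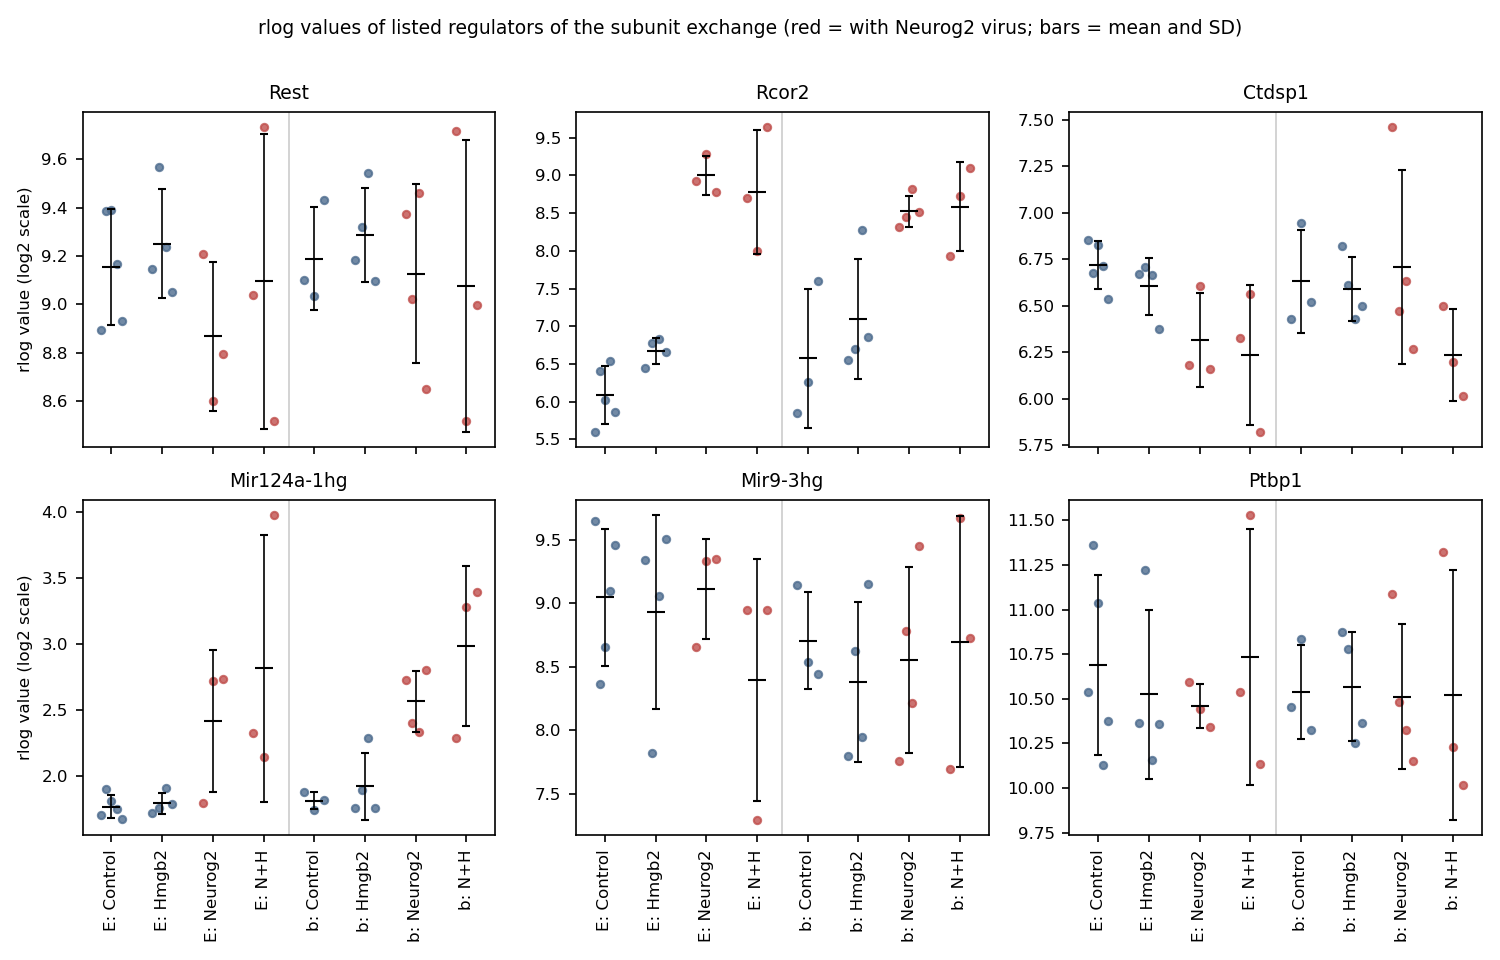
The rlog values of 6 genes around the subunit exchange are shown by library and group, with the mean and SD (bars) and an axis for each gene. Rcor2 (7.94 to 9.64 with the Neurog2 virus, red) and Mir124a-1hg (1.79 to 3.98) are higher with the virus, and Rest (8.52 to 9.73) overlaps with the other libraries.

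The pattern of Actl6b over the 8 group means was most like that of Mir124a-1hg (Pearson r = 0.995 over 8 groups), followed by Srrm4 (0.994), a neuronal splicing factor, Tmem198 (0.993), Mindy1 (0.992) and Cplx1 (0.991), a presynaptic protein. For Bcl7a the nearest were Pdxp (0.994), Mospd1 (0.993), Sox11 (0.991), a transcription factor of newborn neurons, Ahsa2 (0.991) and Dffb (0.991). For Dpf2 they were Hpse (0.988), Ahdc1 (0.982), Cmah (0.978), Lama1 (0.977) and Prss12 (0.973). These are descriptions over 8 points picked from all tested genes. The libraries behind them are shared.

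Other lists set beside the subunits gave these counts for the averaged Neurog2 difference, in which 15.3% of all tested genes were called. Of 20 genes of the other complexes that hold ACTL6A, 1 was higher (Epc1, a TIP60 subunit, 0.26 ± 0.07) and 0 lower, with a median of 0.10. Of 18 other remodelling ATPases, Chd7 (0.93 ± 0.17) and Smarca5 (0.22 ± 0.07) were higher and 0 lower, with a median of 0.09. Of 12 neuronal markers, 6 were higher, with Rbfox3 at 2.89 ± 0.25 and Dcx at 2.76 ± 0.29, and Stmn2 fell by 0.72 ± 0.20. Of 20 cell cycle genes 0 were called, with Mki67 at 0.26 ± 0.18 and Pcna at 0.25 ± 0.15, and all 20 were above 0 with a median of 0.18. Of 12 astrocyte markers Id3 fell by 0.43 ± 0.09. Of 9 tested genes of pericytes and smooth muscle, Cnn1 (−1.63 ± 0.21), Acta2 (−1.14 ± 0.31), Tagln (−1.02 ± 0.32) and Myh11 (−0.60 ± 0.16) were lower. Of 7 tested endothelial genes 2 were lower (Tek and Esam) and 0 higher, and of 10 genes of the oligodendrocyte lineage 0 were called.

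Microglia transcripts moved with the Neurog2 virus in the same direction as the subunits. All 18 markers were above 0 in the averaged comparison (median 1.24), and P2ry12, Tyrobp and Laptm5 were among those called. Of the defining markers, Tmem119 was at 5.61 to 9.40 and Csf1r at 4.71 to 9.95 over all libraries. Others reached lower values, namely Trem2 (3.02 to 7.76), Cx3cr1 (3.07 to 7.73), P2ry12 (3.11 to 5.39) and Aif1 (2.37 to 5.59). With the mean of the 18 markers as a covariate, an alternative chosen after seeing the data, the averaged difference was 0.91 ± 0.17 for Actl6b (adjusted p = 0.000861), 0.92 ± 0.13 for Bcl7a (adjusted p = 5.86e-05) and 0.18 ± 0.07 for Dpf2 (adjusted p = 0.12). The call of Dpf2 was thus lost, Smarca2 was called (0.47 ± 0.12, adjusted p = 0.013), and Actl6a was at −0.01 ± 0.10. In this fit 6 of the 30 subunits were called, namely Actl6b, Bcl7a, Bcl11a, Bcl11b, Smarca2 and Bicral, and 10.2% of all tested genes were, in place of 10 subunits and 15.3%.

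**Figure D5:**
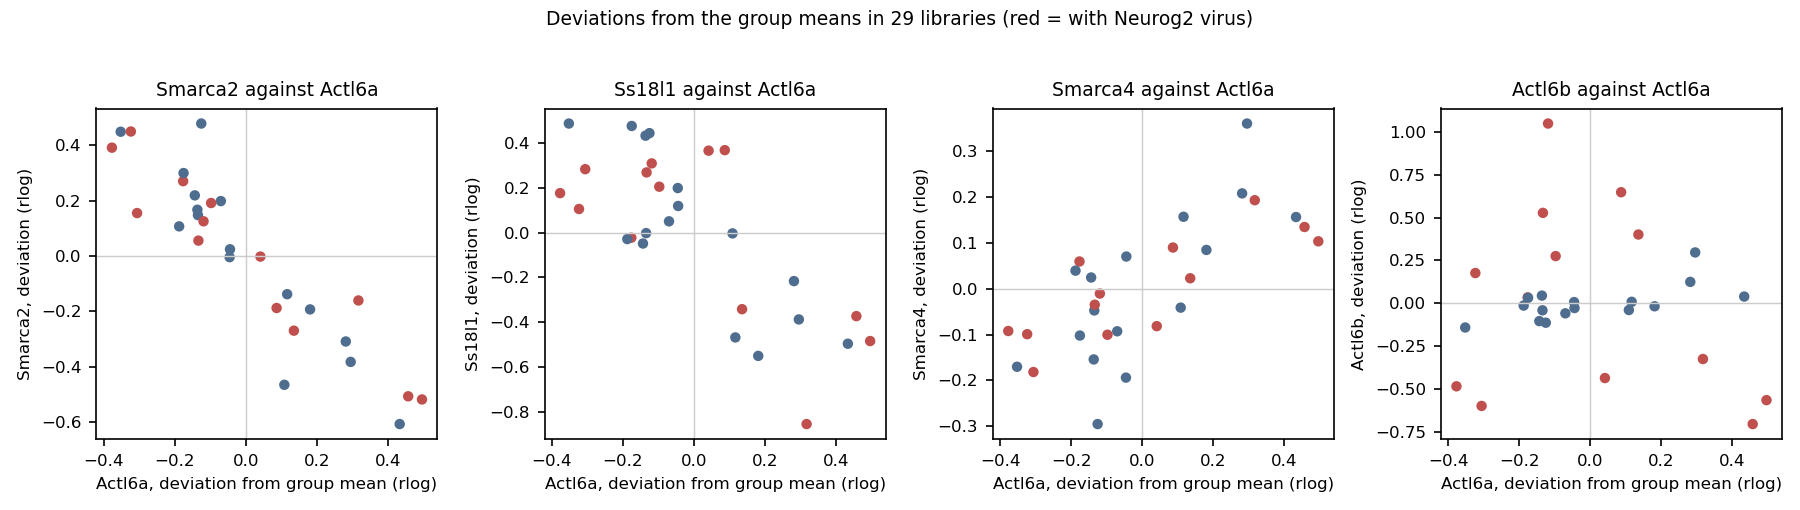
Deviations of Smarca2, Ss18l1, Smarca4 and Actl6b from their group means (rlog) are plotted against those of Actl6a in 29 libraries (points, red with the Neurog2 virus). Smarca2 (r = −0.92) and Ss18l1 (r = −0.75) fall as Actl6a rises, Smarca4 rises (r = 0.72), and Actl6b shows no slope (r = −0.12).

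Within the groups, several members varied together from library to library. The deviations of Actl6a from the group means correlated with those of Smarca2 at r = −0.92, of Ss18l1 at −0.75, of Phf10 at −0.56 and of Smarca4 at 0.72 over 29 libraries. Those of Actl6b and Bcl7a did so at −0.12 and −0.02. The main axis of deviations over all tested genes held 45.4% of them, and it correlated with Actl6a at 0.91, Smarca4 at 0.77, Ss18l1 at −0.84 and Smarca2 at −0.89. The means of the cell cycle list (0.92), the endothelial list (0.98) and the astrocyte list (−0.88) followed the same axis. These correlations are given without a test, since all genes of a library share its depth and composition. The part of these lists in the member values was not tested. Without the 10 libraries beyond 0.2 on this axis, an alternative chosen after seeing the data, the averaged difference was 1.38 for Actl6b, 1.11 for Bcl7a, 0.24 for Dpf2 and 0.08 for Actl6a. The first 3 were called (adjusted p = 9.11e-05, 7.68e-05 and 0.0347) and Actl6a was not (adjusted p = 0.446). Smarca2 (0.32, adjusted p = 0.0227) and Ss18l1 (0.51, adjusted p = 0.0168) were called in this fit, in which 13 of the 30 subunits and 21.4% of all tested genes were.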

How the data were processed

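Bulk RNA was sequenced from 29 libraries of sorted astrocytes in 8 groups. Per the methods and the submitters' processing notes, the authors aligned paired-end reads of an unstranded kit to mm10 with STAR, used HTSeq-count with a GENCODE annotation for read counts per gene, and applied the rlog transformation of DESeq2. The deposited values are these rlog values, on a log2 scale, and were used as deposited. The depth of each library is unknown from such values, and no count test was run.

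Differences were fitted with limma 3.58.1 in R 4.3.3 (8 group means, moderated variances with a trend, 21 residual degrees of freedom) on the 15719 genes with a mean rlog of at least 1, with Benjamini-Hochberg adjustment over all of them. A gene was called at an adjusted p under 0.05. The fit was tested on simulated data. Members and gene lists were chosen with earlier results of these data known. The rule for named genes took all members, other subunits that passed a test, up to 4 genes of each other list (called ones first, then by size), for each member called in the averaged comparison the 5 genes of highest correlation, and Neurog2 and Hmgb2. Rest, Mir124-2hg, Mir9-3hg, Mir9-1, Smarcd3, Bicra, Bicral, Mki67, Pcna and the defining cell type markers were named in addition, after their values were seen. The alternatives were other filters, scalings, variance settings, array weights fitted gene by gene, a replicate block, leaving out each library, and 4 added after the data were seen. Sequences were read with Python 3.11.15 from RefSeq tables and from the GENCODE transcripts and annotation of GRCm38. Plots were drawn with matplotlib 3.10.9.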

Additional observations from a re-analysis of the deposited data

Results flagged for a closer look

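In 40 tests of the members in groups of 4 or 5 libraries, 3 libraries stood apart from the others of their group, where chance alone flags about 1 in 20 groups. Actl6b was at 2.342 in EGF+bFGF Control replicate 2, above the other 4 Control libraries. Dpf2 was at 9.38 in bFGF Hmgb2 replicate 2, below the other 3. Ss18l1 was at 6.178 in bFGF Neurog2 replicate 1, below the other 3.

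Neurog2 transcripts were higher in the libraries that received the Hmgb2 virus without the Neurog2 virus than in the Control libraries, by 2.658 on the log2 scale in EGF+bFGF and by 2.169 in bFGF. The source of these transcripts was not tested.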

How the results depend on the processing

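Of 626 alternative values of the member differences, 566 kept their side of the threshold, 45 lost the call and 15 gained it. Apart from leaving out single libraries, 13 alternatives gave an averaged difference for the uncalled members Smarca2, Ss18l1, Phf10, Smarca4 and Actl6a. A call was gained by Smarca2 in 5, Ss18l1 in 3, Phf10 and Smarca4 in 2 each, and Actl6a in 1. No called value changed sign, and 4 uncalled values did (averaged Dpf1 in 3 and Actl6a in 1). The averaged calls of Actl6b and Bcl7a were kept in every alternative in which the gene was tested, and a filter at a mean of 4 left Actl6b out. The counts of the 30 subunits called moved as follows. For Neurog2 in EGF+bFGF (0) they were 10 with array weights and 5 with the main axis as covariate. For Neurog2 in bFGF (1) they were 0 without the filter, 0 with the compared groups alone, 2 with array weights, 0 with the microglia mean as covariate and 2 without the libraries past 0.2 on the main axis, and 0 to 1 when single libraries were left out. For Neurog2+Hmgb2 in EGF+bFGF (2) they were 1 with a mean of at least 4, 0 with the compared groups alone, 8 with array weights, 7 with the axis covariate, and 0 to 5 without single libraries. For Neurog2+Hmgb2 in bFGF (2) they were 1 with a mean of at least 4, 0 with the compared groups alone, 7 with array weights, 1 with the microglia covariate, 9 with the axis covariate, 4 without the axis libraries, and 0 to 2 without single libraries. For the averaged Neurog2 difference (10) they were 20 with array weights, 22 with the axis covariate and 6 with the microglia covariate, and 9 to 11 without single libraries. For the culture (0) they were 2 with array weights and 1 without the axis libraries. The axis was built from the same deviations, so p-values with it as covariate are too small.

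The replicate numbers were not taken to pair the libraries in the main fit, since the labels name nothing shared by a number and not every same-numbered pair correlated. The pairs below are pooled over both cultures, so they cannot exclude a pairing within a culture. Deviations of same-numbered libraries correlated at a median of 0.144 (−0.657 to 0.808, with 48 of 90 pairs over 0.1) against −0.0359 for 276 other pairs, and 9 of 28 libraries correlated best with their own number. With the replicate block the counts were 1 for Neurog2 in EGF+bFGF, 0 for Neurog2+Hmgb2 in EGF+bFGF and 11 for the averaged difference. With the replicate block within each culture they were 1, 0 and 12, and also 0 for Neurog2 and 4 for Neurog2+Hmgb2 in bFGF. Replicate 2 was the highest in Actl6a in all 4 EGF+bFGF groups. In all 4 bFGF groups, replicate 3 was the lowest in Actl6a and the highest in Phf10. On the main axis, bFGF replicate 3 scored −0.242 to −0.0968 and EGF+bFGF replicate 2 scored 0.0546 to 0.363. The main fit took no account of such sharing. Under the replicate blocks the EGF+bFGF Neurog2+Hmgb2 calls of Actl6b (adjusted p = 0.0624 and 0.102) and Bcl7a (0.0554 and 0.101) were lost. Within each culture that of Bcl7a with Neurog2 in bFGF was lost too (0.0888). Within each culture Dpf2 missed the threshold (0.21, adjusted p = 0.0665).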
